A study of Homo sapiens with 66 samples.

Results

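The genes examined here encode the HIF transcription factor itself and the proteins that set its level and activity: the HIF-α subunits HIF1A, EPAS1 and HIF3A, the partner subunit ARNT (HIF-1β), the prolyl hydroxylases EGLN1, EGLN2 and EGLN3 (PHD2, PHD1 and PHD3), the asparaginyl hydroxylase HIF1AN (FIH), the ubiquitin ligase subunit VHL, and CITED2, which competes with HIF-α for its co-activators. For each of these 10 genes, every ChIP-seq peak was taken whose centre lay in the gene body or within 50 kb of it in the GENCODE annotation lifted to hg19. Peaks of different libraries that overlapped by at least 1 bp were merged into 1 site. This gave 367 of 131425 peaks, in 58 of 50316 sites. Of the 58 sites, 18 were called in both libraries of at least 1 experimental group and are described below. The other 40 sites were called in both libraries of no group, and 31 of them had a peak in a single library.

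The study mapped HIF-1α, HIF-2α and HIF-1β by chromatin immunoprecipitation in 25 groups of 2 libraries each, with 1 peak list for each library. The severity and duration experiment had 24 libraries, in which HKC-8 renal tubular epithelial cells were kept for 6 h at 3% oxygen, or at 0.5% for 6 h, 16 h or 48 h, with all 3 antibodies. In the knockout experiment (14 libraries), wild-type HKC-8 cells and clones whose HIF-1α gene (HIF-1αKO) or HIF-2α gene (HIF-2αKO) had been disrupted with paired Cas9 nickases were kept at 0.5% oxygen for 16 h, and no library used an antibody to the deleted isoform. RCC4, a renal carcinoma line without functional VHL protein, was used in normoxia, and HepG2, a liver cancer line, at 0.5% oxygen for 16 h (6 libraries each). Each knockout genotype was a clone, RCC4 differed from HKC-8 in oxygen as well as in line, and the peak lists hold no measure of HIF protein with which the genotypes could be checked here. By the study's immunoblots, each clone had lost the targeted subunit. The study also reports slightly less HIF-1α protein and HIF-1α binding in HIF-2αKO cells, the protein difference possibly due to clonal variation.

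HIF is a dimer of an oxygen-regulated α subunit and the constitutive β subunit. In oxygenated cells the EGLN enzymes hydroxylate prolines of HIF-α, the VHL ubiquitin ligase then binds it and it is degraded, while HIF1AN hydroxylates an asparagine and so blocks binding of the co-activators p300 and CBP. Low oxygen slows these reactions, and the dimer binds hypoxia-response elements (HREs) with the core RCGTG. Several of the genes of the pathway are themselves hypoxia-inducible, EGLN3 and EGLN1 among the best known, which forms a negative feedback loop.

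A peak list says whether a peak passed the caller's threshold, not how many reads lay under it. Lists held 237 to 8279 peaks (median 1455), with 237 to 1793 peaks for severity and duration, 915 to 8279 for the knockouts and their wild type, 911 to 5680 in RCC4 and 3470 to 6851 in HepG2. Each peak is therefore given by its score percentile, the position of its score within its own list from 0 to 100 (highest), and a library without a peak is called not called. The score is read here as a form of the caller's p-value, and is not a measure of peak height. In HepG2, overlap between HIF-α libraries did not follow their labels. The library labelled HIF-1α replicate 2 shared 2573 sites with the library labelled HIF-2α replicate 1 (49.9% of the shorter list) but 1199 (34.7%) with the other library labelled HIF-1α, and the 2 libraries labelled HIF-2α shared 1156 (25.8%). Results on isoforms are therefore given with and without HepG2.

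Among 20163 protein-coding genes, 46.7% had within the same distance a site called in both libraries of at least 1 group, and 8 of the 10 genes did. ARNT and EGLN2 were the exceptions. The wide window matters for EGLN3, whose annotated body of 539 kb includes transcripts that start far upstream of the canonical one (the median protein-coding gene spans 27.2 kb), and 32 of the 58 sites belong to it. A core of an HRE (ACGTG or GCGTG on either strand, where CACGTG counts on both) lay within 100 bp of the centre of 14 of the 18 sites (77.8%), against 59.9% of the 9315 sites genome-wide that were called in both libraries of a group. An AP-1 motif (TGACTCA or TGAGTCA) lay there in 4 of the 18 (22.2%), against 15.7%.

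The sequences around the core nearest to the centre are shown for the sites on which the results turn, from the GRCh37 (hg19) genome, 5′ to 3′ on the strand that reads RCGTG, with every core on either strand in capitals. They lie at chr14:62217870-62217914 (plus strand, HIF1A site 1), chr1:231558022-231558066 (minus, EGLN1 site 1), chr14:34407685-34407729, chr14:34504965-34505009 and chr14:34529489-34529533 (plus, EGLN3 sites 1, 2 and 3), chr19:46802394-46802438 (minus, HIF3A site 1), chr10:102289609-102289637 (minus, HIF1AN site 1) and chr3:10157226-10157270 (plus, VHL site 1). Sites are numbered within each locus by the number of libraries that called them.
HIF1A site 1: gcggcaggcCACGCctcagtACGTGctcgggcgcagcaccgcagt
EGLN1 site 1: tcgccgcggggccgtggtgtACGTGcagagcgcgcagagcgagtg
EGLN3 site 1: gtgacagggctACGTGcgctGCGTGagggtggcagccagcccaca
EGLN3 site 2: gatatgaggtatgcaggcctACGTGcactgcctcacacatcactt
EGLN3 site 3: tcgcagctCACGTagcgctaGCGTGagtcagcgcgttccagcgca
HIF3A site 1: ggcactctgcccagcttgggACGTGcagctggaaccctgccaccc
HIF1AN site 1: tgcagaagggaaACGTGaagaaggtgaag
VHL site 1: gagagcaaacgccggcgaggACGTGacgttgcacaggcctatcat
HIF1A site 1, EGLN3 site 1 and EGLN3 site 3 each carry 2 cores in the stretch shown, and in EGLN3 site 3 the core runs into an AP-1 motif (TGAGTCA) with which it shares its last letters. HIF1A site 2 and CITED2 site 1 had no core within 100 bp of their centres. The nearest core in the same site lay 603 bp and 201 bp away, respectively.

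**Figure D1:**
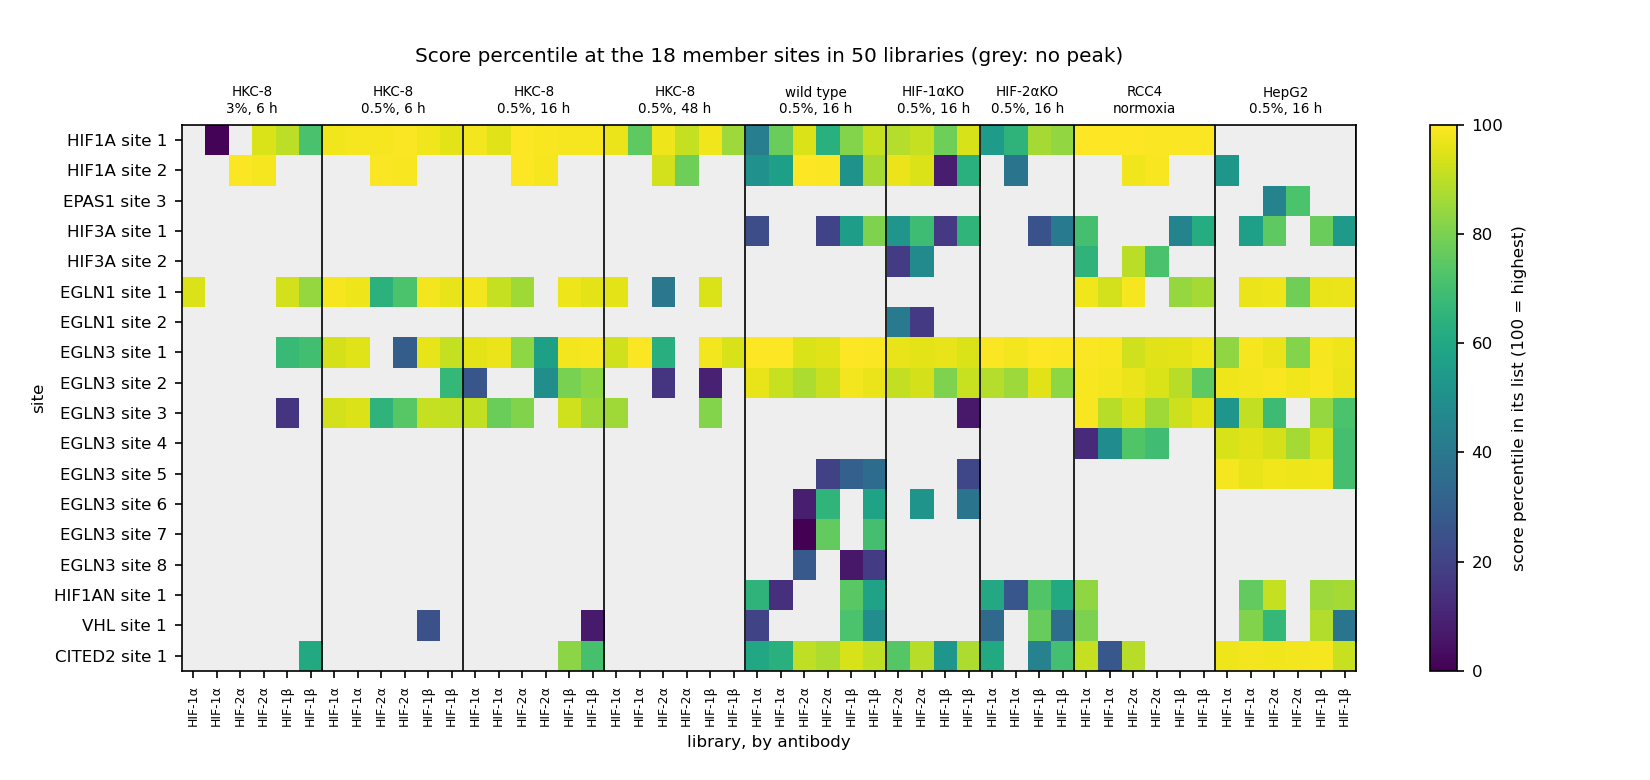
Score percentile (colour, 0 to 100) at the 18 sites called in both libraries of at least 1 group (vertical axis), in the 50 libraries (horizontal axis, by condition and antibody, 2 libraries per group); grey marks a library without a peak. HIF1A site 1 and EGLN3 site 1 were called in 42 and 44 libraries, HIF1A site 1 in no HepG2 library, and EGLN1 site 1 in no library of the knockout experiment.

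No library had a peak within 1 kb of a coding transcription start of HIF1A. The HIF1A locus held instead 2 sites past the end of the gene, on the side of the neighbouring gene SNAPC1, a subunit of the small nuclear RNA activating complex. Site 1 (chr14:62217269-62218623, intergenic, 2.97 kb past the gene end and 11.2 kb from the SNAPC1 start) was called in 42 of 50 libraries. At 0.5% oxygen in the severity and duration experiment all 18 libraries called it, with percentiles from 75.2 to 99.7 (median 97.9). In RCC4 all 6 called it, at 99.5 to 99.9, and by score it ranked first in the first HIF-1α list and between 4 and 17 in the other 5. In the knockout experiment all 14 libraries called it, at 42.8 to 94.6 (median 82.7). HIF-1α, HIF-2α and HIF-1β were called alike, in 13 of 16, 13 of 16 and 16 of 18 libraries. None of the 6 HepG2 libraries called it, against 42 of the 44 others. With labels permuted within antibody, the calls at site 1 were 0 of 6 in HepG2 and 6 of 6 in wild-type HKC-8 (exact permutation p = 0.00926, the smallest this design allows). The Benjamini-Hochberg adjusted p of 0.0872 by this exact test did not pass 0.05. Of the 7717 sites tested, 58.4% had fewer calls in HepG2, and 977 of these had an unadjusted p under 0.05.

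The second site past HIF1A (chr14:62221440-62222849, intergenic, 7.16 kb past the gene end and 7.0 kb upstream of SNAPC1) differed from the first in its antibodies. All 14 HIF-2α libraries of HKC-8 and RCC4 called it. The HIF-2α percentiles were 99.3 and 98.7 at 3% oxygen, 99.4 and 98.9 at 0.5% for 6 h, 99.7 and 98.6 for 16 h, and 93.1 and 78.1 for 48 h. They were 99.7 and 99.3 in wild-type cells of the knockout experiment, 96.9 and 94.6 in HIF-1αKO cells, and 98 and 99.2 in RCC4. It ranked 5 and 14 among 558 and 977 HIF-2α peaks at 3% oxygen, and thus was among the peaks with the highest scores in those lists. HIF-1α was not called there in any of the 10 libraries of the severity and duration experiment and RCC4, nor was HIF-1β in any of 10. In wild-type cells of the knockout experiment, by contrast, both HIF-1α libraries (50.5 and 56.6) and both HIF-1β libraries (50.8 and 86.7) called it. HIF-1α was also called in 1 HIF-2αKO library (38.5), and in HepG2 only the library labelled HIF-1α replicate 1 had a peak (52.8).

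Over the 7 conditions with both isoforms, 12 of 14 HIF-2α and 3 of 14 HIF-1α libraries called HIF1A site 2 (exact permutation p = 0.00283 with labels permuted within condition, adjusted p = 0.159). By this count of calls, no site in the genome passed the adjusted threshold of 0.05 (0.0% of 3314 tested), although 365 had an unadjusted p under 0.05. Without HepG2 the counts were 12 of 12 and 2 of 12 (exact permutation p = 0.000257, adjusted p = 0.0398), and 1.06% of 2271 sites passed in the direction of HIF-2α. By score percentile, with 0 where not called, the HIF-1α mean was 11.4 and the HIF-2α mean 83.0 (adjusted p = 0.0125, exact permutation test), where 4.04% of sites passed in that direction. HIF1A site 2 therefore differed between the isoforms beyond the spread of the libraries by percentile, and by calls only when HepG2 was left out.

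How often a HIF-2α site lacked a HIF-1β call varied between conditions and experiments. Of the sites called in both HIF-2α libraries of the severity and duration experiment, 43.5% had no HIF-1β call at 3% oxygen, and at 0.5% oxygen 36.4% had none at 6 h, 19.8% at 16 h and 42.2% at 48 h. The share was 61.6% in RCC4 and 4.37% in wild-type cells of the knockout experiment. Among those with both HIF-2α percentiles at 90 or above, which HIF1A site 2 met except at 48 h, the shares in the same order were 41.9%, 24.7%, 11.3%, 21.4%, 19.1% and 0.244%. RCC4 HIF-1β lists held 911 and 1305 peaks, against 4317 and 2990 for HIF-2α. Wild-type HIF-1β lists held 6199 and 8279, against 4537 and 6749. The part of list length in these shares was not tested. By read signal rather than calls, the study found HIF-1β at nearly all HIF-α sites in HKC-8, RCC4 and HepG2. Called in all 14 HIF-2α libraries of HKC-8 and RCC4 were 18 sites in the genome, and 4 of these had neither a HIF-1α nor a HIF-1β call in the severity and duration experiment and RCC4. HIF1A site 2 was 1 of the 4, and the nearest coding starts of the others were those of SERTAD4, LPIN1 and ROBO2, all named after their values were seen. At each of the 4, HIF-1β was called in 1 or both wild-type libraries of the knockout experiment and in neither HIF-2αKO library. Of all sites with HIF-1β in both wild-type libraries, 52.9% were called in neither HIF-2αKO library. The ROBO2 site, called in 1 wild-type library, is outside that set. In HIF-1αKO cells HIF-1β was called in both libraries at HIF1A site 2 and the LPIN1 site, in 1 at the SERTAD4 site and in none at the ROBO2 site.

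**Figure D2:**
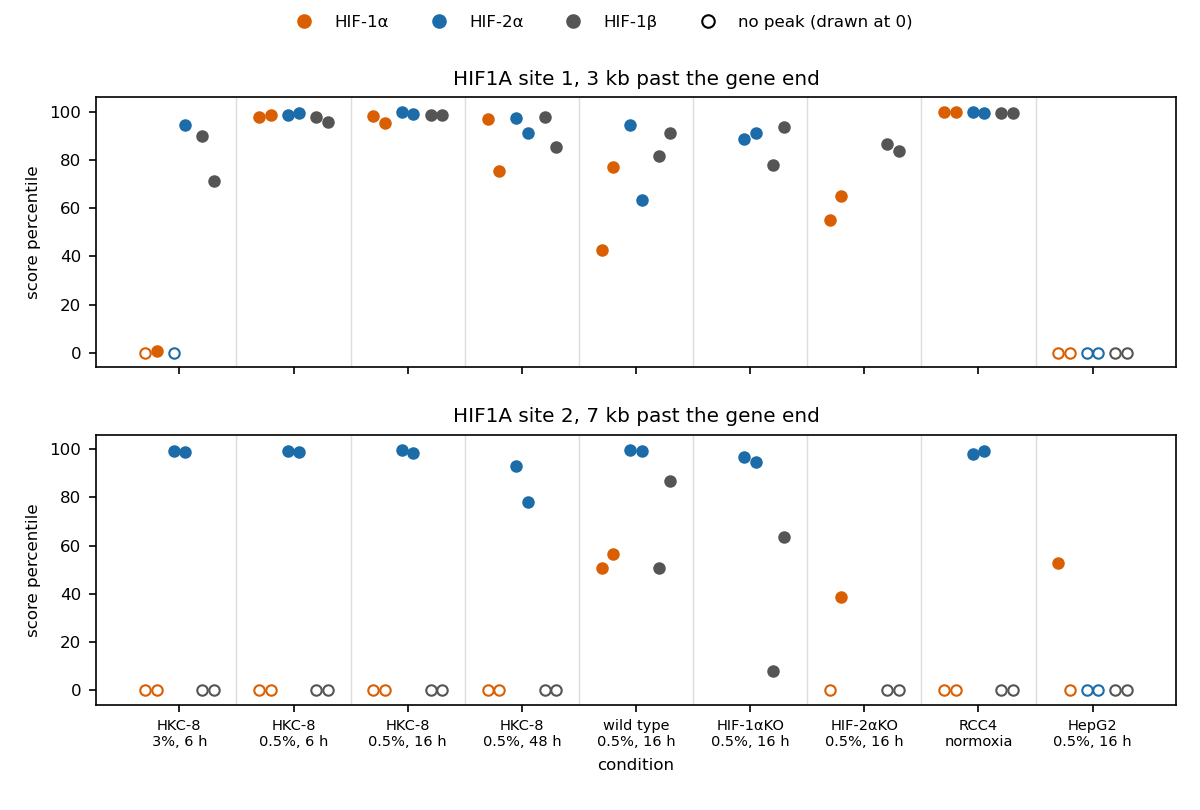
Score percentile (vertical axis) of each library at the 2 sites past the HIF1A gene, by condition (horizontal axis) and antibody (colour); each point is 1 library and open points at 0 had no peak. At the second site all HIF-2α points of HKC-8 and RCC4 lie at 78.1 or above, while HIF-1α and HIF-1β have no peak in the 4 conditions of the severity and duration experiment or in RCC4.

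EPAS1, which encodes HIF-2α, had 6 sites in its window and no peak within 1 kb of a coding start. A single site was called in both libraries of a group, 22.6 kb past the gene end (chr2:46635694-46637198, intergenic), in the 2 HepG2 libraries labelled HIF-2α, at percentiles of 44.9 and 71.7, and nowhere else. The site called most often lay in an intron (chr2:46541781-46543278), in 7 libraries and in both of no group, at a mean percentile of 32.1. ARNT had 1 site, at the start of SETDB1 and 49.6 kb upstream of ARNT, called in 2 libraries of different groups. Of the 3 genes that encode the subunits immunoprecipitated here, HIF1A alone had a site called in both libraries of more than 1 group.

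HIF3A encodes a further α subunit, some splice forms of which inhibit the others. Its first site (chr19:46800998-46802967) lay in an intron, 0.701 kb from an alternative coding start and 2.08 kb from the canonical one, and was called in 17 libraries: 3 of 16 for HIF-1α, 4 of 16 for HIF-2α and 10 of 18 for HIF-1β. None of the 24 severity and duration libraries called it. HIF-1β was called in both libraries of every other group, at 55.6 and 80.8 in wild-type, 16.7 and 65.5 in HIF-1αKO, 25.3 and 41.4 in HIF-2αKO, 45.1 and 61.8 in RCC4, and 77.0 and 53.8 in HepG2 cells. HIF-2α was called there in both HIF-1αKO libraries, at 52.1 and 68.8, in 1 of 2 wild-type libraries, at 20.3, and in 1 HepG2 library, at 75.2. A second site 25.4 kb upstream (chr19:46774021-46775946, intergenic) was called for HIF-2α in both RCC4 libraries (89.5 and 71.4) and both HIF-1αKO libraries (17.3 and 47.4), for HIF-1α in 1 RCC4 library (64.9) and for HIF-1β in none.

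EGLN1, the main oxygen-sensing prolyl hydroxylase, had a site at its own promoter (chr1:231556279-231558979, centre in the 5′ untranslated region, 0.054 kb from the canonical start, with the nearest core 11 bp upstream of it). It was called in 27 of 50 libraries, 9 of 16 for HIF-1α, 7 of 16 for HIF-2α and 11 of 18 for HIF-1β. In the severity and duration experiment 17 of 24 libraries called it, at 39.6 to 98.5 (median 94.8). At 0.5% oxygen for 6 h the percentiles were 98.5 and 97.6 for HIF-1α, 64.1 and 71.7 for HIF-2α, and 98.4 and 96.6 for HIF-1β, so that the HIF-2α values were the lowest in that condition. The highest percentile of all libraries was nevertheless that of a HIF-2α library, in RCC4. Over the 7 conditions 9 of 14 HIF-1α and 7 of 14 HIF-2α libraries called the site (exact permutation p = 0.667, adjusted p = 1; by percentile adjusted p = 0.353), and without HepG2 the counts were 8 and 5 of 12 (exact permutation p = 0.333, adjusted p = 0.739). RCC4 called it in 5 of 6 libraries (84 to 98.6) and HepG2 in 5 of 6 (78.3 to 97.4). None of the 14 libraries of the knockout experiment called it, the wild-type cells included. A weaker intronic site (chr1:231531646-231532601, 25.9 kb into the gene) was called only in the 2 HIF-2α libraries of HIF-1αKO cells, at 41.6 and 17. EGLN2 had 2 sites, at the starts of SNRPA and RAB4B, each in a single library.

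EGLN3, the prolyl hydroxylase most often found to be hypoxia-inducible, carried the site called in the most libraries. EGLN3 site 1 (chr14:34406109-34408566, intronic, 12.6 kb into the canonical gene) was called in 44 of 50 libraries: 14 of 16 for HIF-1α, 12 of 16 for HIF-2α and all 18 for HIF-1β. Its 6 misses were all HIF-α libraries of the severity and duration experiment. In the wild-type cells of the knockout experiment it ranked second by score in both HIF-1α lists (99.9 and 99.9), and the HIF-2α percentiles there were 94.2 and 95.7. At 0.5% oxygen for 16 h in the severity and duration experiment they were 96.0 and 97.2 for HIF-1α, 83.0 and 56.8 for HIF-2α, and 98.2 and 98.8 for HIF-1β. RCC4 values lay from 92.9 to 99.5 and HepG2 values from 81.4 to 98.8. The centres of its 44 peaks spread over 528 bp.

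The isoforms called EGLN3 site 1 in similar numbers, 12 of 14 libraries for HIF-1α and 10 of 14 for HIF-2α (exact permutation p = 0.5, adjusted p = 1). By score percentile HIF-1α was higher, with a mean of 82.5 against 56.3 (exact permutation p = 0.00129, adjusted p = 0.0355), where 1.45% of sites passed in that direction. Without HepG2 the means were 81.1 and 50.8 (adjusted p = 0.00913, exact permutation test), where 4.18% passed.

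Upstream of the canonical EGLN3 start, in introns of its longer transcripts, lay 7 more sites called in both libraries of a group. Site 2 (chr14:34503138-34506217, 84.7 kb upstream) was called in 33 libraries, with all 14 of the knockout experiment (80.8 to 98.3), all 6 of RCC4 (75.1 to 99.1) and all 6 of HepG2 (97.2 to 99.1), but in 7 of 24 of the severity and duration experiment (9.15 to 82.9). Site 3 (chr14:34528157-34531049, 109 kb upstream) went the other way. It was called in 14 of 24 severity and duration libraries (15.3 to 94.6), all 6 RCC4 libraries (85.9 to 99.1) and 5 of 6 HepG2 libraries (52.4 to 90.8), but in 1 of 14 libraries of the knockout experiment, at 6.82. Neither passed the test between isoforms, with 7 and 8 of 14 libraries at site 2 (exact permutation p = 1) and 9 and 6 of 14 at site 3 (exact permutation p = 0.25, adjusted p = 0.902). Without HepG2 the counts were 5 and 6 of 12 at site 2 (exact permutation p = 1) and 7 and 5 of 12 at site 3 (exact permutation p = 0.5, adjusted p = 0.839). By score percentile, HIF-1α minus HIF-2α was 21.8 at site 3 (exact permutation p = 0.0193, adjusted p = 0.159). Without HepG2 it was 19.2 (exact permutation p = 0.0185, adjusted p = 0.096). At site 2 it was -1.77 (exact permutation p = 0.647, adjusted p = 0.811).

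EGLN3 sites 4 and 5 were called in every HepG2 library. Site 4 (chr14:34531630-34535535) was called in all 6 HepG2 libraries (70.5 to 95.5) and in the 4 HIF-α libraries of RCC4 (12.4 to 72.8), and in none of the 38 HKC-8 libraries. Site 5 (chr14:34510500-34514540) was called in all 6 HepG2 libraries at 70.4 to 98.5, and otherwise in 4 HKC-8 libraries of the knockout experiment at 19.9 to 35.2. Against wild-type HKC-8 the calls were 6 against 0 of 6 at site 4 (exact permutation p = 0.00926, adjusted p = 0.0872) and 6 against 3 of 6 at site 5 (exact permutation p = 0.167, adjusted p = 0.227). Neither passed after adjustment, and 36.5% of the 7717 sites had more calls in HepG2. EGLN3 sites 6, 7 and 8 were called in 5, 3 and 3 libraries, all of the knockout experiment and none for HIF-1α.

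The HIF1AN and VHL loci each had 1 such site, and both lay at the promoter of a neighbour. HIF1AN site 1 (chr10:102288612-102290239) was centred 0.027 kb from the start of NDUFB8, a subunit of respiratory complex I, within the annotated HIF1AN gene, near an alternative coding start of it, and 6.11 kb upstream of the canonical HIF1AN start. VHL site 1 (chr3:10156631-10158183) was centred 0.064 kb from the start of BRK1, a subunit of an actin-regulating complex, and 26.2 kb upstream of VHL. No library had a peak within 1 kb of a VHL coding start. Both sites were called in 13 libraries, HIF1AN site 1 in 6 of 16 for HIF-1α, 1 of 16 for HIF-2α and 6 of 18 for HIF-1β, and VHL site 1 in 4, 1 and 8. The 1 HIF-2α call at each was in the HepG2 library labelled HIF-2α replicate 1 (91.1 and 66.7). Over the 7 conditions the isoforms did not pass the test at either (4 and 1 of 14 libraries at HIF1AN site 1, exact permutation p = 0.278; 3 and 1 at VHL site 1, exact permutation p = 0.583). Without HepG2 the counts were 3 and 0 of 12 at HIF1AN site 1 and 2 and 0 of 12 at VHL site 1, too few calls for either to be tested.

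CITED2 site 1 (chr6:139693945-139698540) was centred 0.592 kb upstream of the CITED2 start and was called in 25 libraries, 7 of 16 for HIF-1α, 7 of 16 for HIF-2α and 11 of 18 for HIF-1β. All 6 HepG2 libraries called it, at 91.5 to 98.5, all 6 wild-type libraries of the knockout experiment at 60 to 93.9, and 3 of 6 RCC4 libraries at 27.3 to 91.4. Only 3 of 24 severity and duration libraries called it, all for HIF-1β, at 60.7, 82.7 and 70.9. The isoforms did not pass the test (6 and 5 of 14 libraries, exact permutation p = 1; without HepG2 4 and 3 of 12, exact permutation p = 1). Peak centres at this site spread over 1140 bp, more than the 613 bp at EGLN1 site 1.

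**Figure D3:**
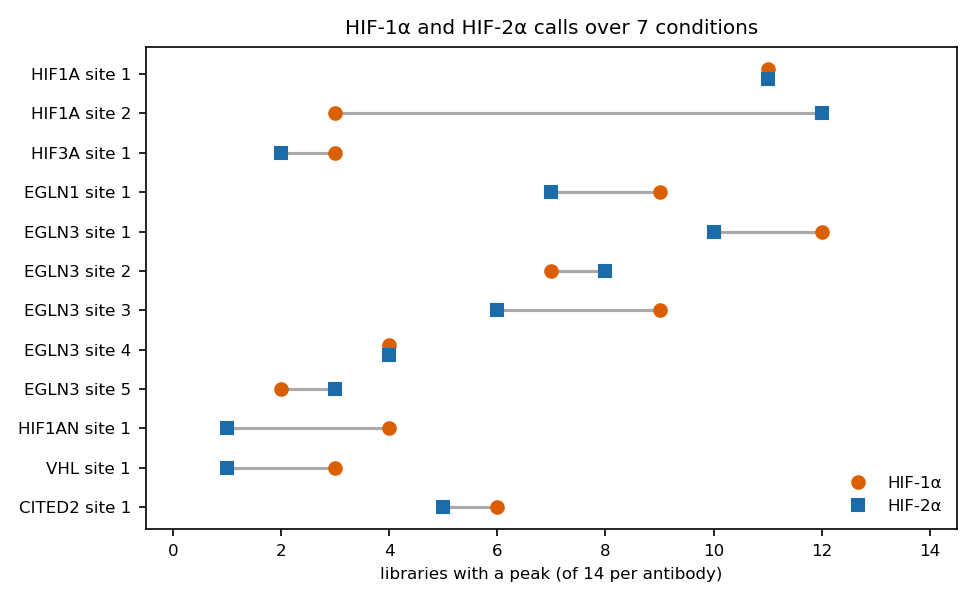
Number of libraries of 14 per antibody (horizontal axis) with a HIF-1α peak (circles) or a HIF-2α peak (squares) at the 12 sites called in at least 4 of the 28 HIF-α libraries (vertical axis), over the 7 conditions with both antibodies. HIF1A site 2 shows the widest gap, 3 against 12 libraries, and no other site differs by more than 3; without HepG2 the counts at HIF1A site 2 are 2 and 12 of 12.

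Oxygen level and duration were compared within the severity and duration experiment, with labels permuted within antibody. At 3% oxygen for 6 h, 4 of the 5 sites tested were called in fewer libraries than at 0.5%, where 54.4% of 687 sites genome-wide were. EGLN3 site 3 went from 6 of 6 libraries to 1 of 6 (exact permutation p = 0.0278, adjusted p = 0.962), EGLN3 site 1 went from 5 to 2 and EGLN1 site 1 from 6 to 3 (exact permutation p = 0.167 each), and HIF1A site 1 from 6 to 4 (exact permutation p = 0.5). HIF1A site 2 was called in the same number, both HIF-2α libraries at either oxygen level. At 16 h, 2 of 6 sites were called in more libraries than at 6 h, where 60.8% of 1053 sites were, and the largest change was at EGLN3 site 2, 4 against 1 of 6 (exact permutation p = 0.25). At 48 h, 2 of 6 sites were called in fewer libraries than at 6 h, where 54.2% of 703 sites were. These were EGLN3 site 3, 2 against 6 of 6 (exact permutation p = 0.0833), and EGLN1 site 1, 3 against 6 (exact permutation p = 0.25). No adjusted p passed 0.05 in these comparisons at any site by this test, and 10, 5 and 2 sites genome-wide had an unadjusted p under 0.05. The smallest exact permutation p this design allows is 0.00926. After adjustment over 687 to 1053 sites, a site could therefore pass only together with many others. The comparisons cannot show that calls were unaffected by oxygen or duration. The 48 h HIF-2α replicate 2 list held 237 peaks, the fewest of all, and the part of list length in these counts was not tested.

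In the knockout experiment, HIF-1β was called in both wild-type libraries at 10 of the 58 sites. In HIF-1αKO cells 6 of these were called in both libraries, 1 in 1 and 3 in neither, against 31.3% in neither of all 5049 sites. In HIF-2αKO cells 7 were called in both and 3 in neither, against 52.9% in neither genome-wide. HIF1A site 1, EGLN3 sites 1 and 2, HIF3A site 1 and CITED2 site 1 kept both calls in both genotypes. With 2 libraries against 2 the smallest exact p is 0.333, so these are counts and not tests.

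The 3 sites without a HIF-1β call in HIF-1αKO cells and the 3 in HIF-2αKO cells had EGLN3 site 8 in common. HIF1AN site 1 was called at 74.6 and 57.7 in wild-type cells, at 72.7 and 60.8 in HIF-2αKO cells, and in neither HIF-1αKO library. VHL site 1 was called at 71.8 and 49.0 in wild-type cells, at 76.6 and 35.9 in HIF-2αKO cells, and in neither HIF-1αKO library. HIF1A site 2 had the opposite pattern, with 50.8 and 86.7 in wild-type cells, 8.06 and 63.6 in HIF-1αKO cells, and no call in HIF-2αKO cells. EGLN3 site 5 was called at 30.8 and 35.2 in wild-type cells, at 21.2 in 1 HIF-1αKO library and in neither HIF-2αKO library. EGLN3 site 8, with wild-type percentiles of 6.26 and 17.9, was called in neither genotype. The HIF-1β lists held 6199 and 8279 peaks in wild-type, 3387 and 5786 in HIF-1αKO, and 2550 and 2085 in HIF-2αKO cells. In the wild-type lists HIF1A site 2 ranked 3052 and 1098, and EGLN3 site 5 ranked 4289 and 5363. Percentiles refer to lists of these different lengths. Neither the part of list length nor any difference between the genotypes was tested.

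With the antibody to the remaining α subunit, HIF-1α was called in both wild-type libraries at 6 sites. In HIF-2αKO cells 4 of these were called in both libraries, 2 in 1 and none in neither, against 28.3% in neither genome-wide. At EGLN3 site 1 HIF-1α stood at 99.4 and 98.3 in HIF-2αKO cells. HIF-2α was called in both wild-type libraries at 7 sites, of which HIF-1αKO cells kept 5 in both, 1 in 1 and lost 1 (EGLN3 site 7), against 17.8% lost genome-wide. Both HIF-2α libraries of HIF-1αKO cells also called 2 sites that no wild-type HIF-2α library did, HIF3A site 2 and EGLN1 site 2, of 45 sites near the 10 genes without a wild-type call. Genome-wide this was 726 of 43088 sites (1.68%). None of the 50 sites near these genes without a wild-type HIF-1α call was called in both HIF-1α libraries of HIF-2αKO cells, against 49 of 48048 genome-wide (0.102%).

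**Figure D4:**
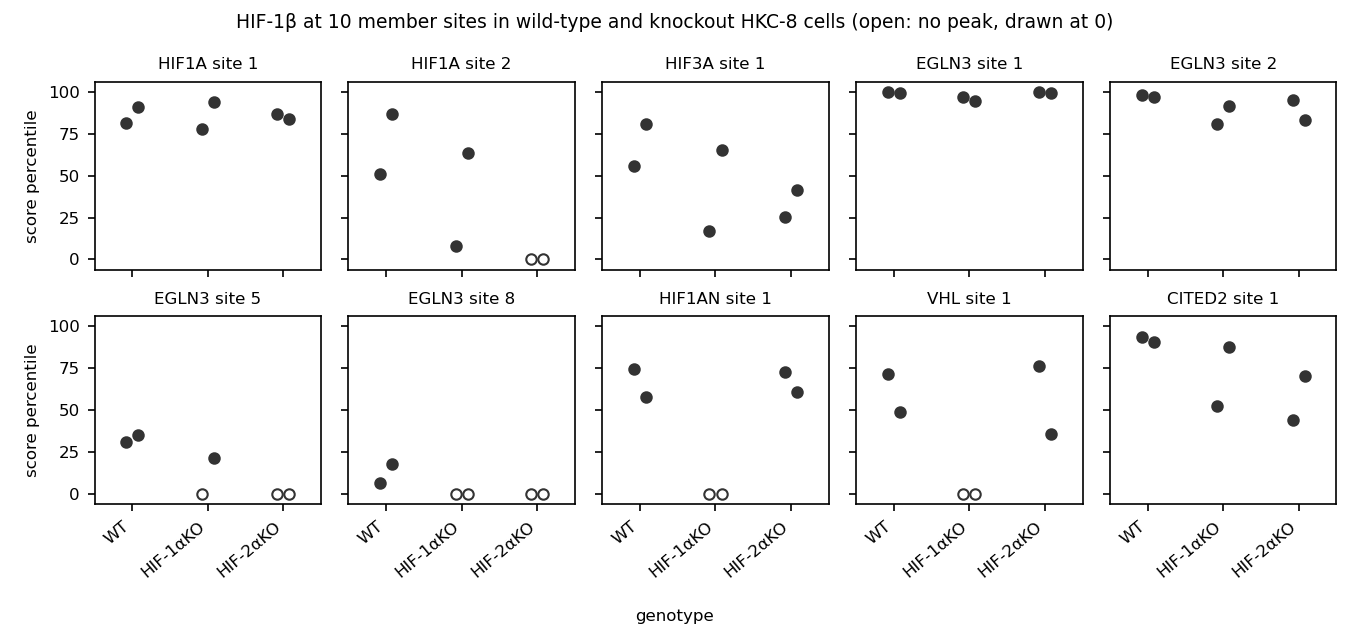
HIF-1β score percentile (vertical axis) in the 2 libraries each of wild-type, HIF-1αKO and HIF-2αKO HKC-8 cells (horizontal axis) at the 10 sites called in both wild-type libraries; each point is 1 library and open points at 0 had no peak. HIF1AN site 1 and VHL site 1 have no peak in HIF-1αKO cells, HIF1A site 2 has none in HIF-2αKO cells, and EGLN3 site 1 stays at 94.4 or above in all 6 libraries.

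Between lines, of the 10 HIF-1β sites of wild-type HKC-8 cells, 4 were called in both RCC4 HIF-1β libraries and 7 in both HepG2 libraries, against 6.2% and 14.2% of all 5049 sites. The 4 shared with RCC4 were HIF1A site 1, HIF3A site 1 and EGLN3 sites 1 and 2. The RCC4 HIF-1β lists were short (911 and 1305 peaks). Of the 10 genes, 6 had a HIF-1β site in both wild-type HKC-8 libraries, 4 in RCC4 and 6 in HepG2, against 28.1%, 4.96% and 22.6% of all protein-coding genes. HIF1A was among them in both kidney lines and not in HepG2, and EGLN1 in RCC4 and HepG2 and not in wild-type HKC-8 cells of the knockout experiment. EGLN3 and HIF3A were among them in all 3. HIF1AN and VHL were among them in wild-type HKC-8 and HepG2 only through the sites at the NDUFB8 and BRK1 starts. The shares over all protein-coding genes were not matched for gene length. Line, experiment and, for RCC4, oxygen cannot be told apart.

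The absence of EGLN1 site 1 and the near absence of EGLN3 site 3 in the knockout experiment also appeared between HKC-8 cells of the same line, oxygen and duration. This comparison was added after the data had been seen. In wild-type cells of the knockout experiment each was called in 0 of 6 libraries, against 5 of 6 at 0.5% oxygen for 16 h in the severity and duration experiment (exact permutation p = 0.0278, adjusted p = 0.123 each). They were 2 of 14 sites tested with fewer calls, where 3.94% of 5362 sites had fewer and 92.8% had more. Of the 14, 10 had more calls. HIF1A site 2 and CITED2 site 1 had 6 against 2 and HIF1AN site 1 had 4 against 0 (exact permutation p = 0.0556, adjusted p = 0.123 each). HIF3A site 1 also had 4 against 0 (exact permutation p = 0.0833, adjusted p = 0.166). Of 73 sites called in at least as many severity and duration libraries as EGLN1 site 1, 3 were called in no library of the knockout experiment. They were EGLN1 site 1 and sites nearest to BNIP3, a mitophagy receptor, and RASSF7.

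GC content moved with this difference. Over 500 bp, EGLN1 site 1 had 78.4% and EGLN3 site 3 75.0% GC, above all other sites described here (40.4% to 67.2%). Of 814 sites with HIF-1β in both 16 h libraries of the severity and duration experiment, 21.0% were called in neither HIF-1β wild-type library of the knockout experiment. At 70% GC or more this was 56.0% of 116 sites, and in the bins from 40% to 70% it was 11.5% to 20.8% of 173 to 270 sites each (the bin below 40% held 9 sites). Sites of at least 70% GC made up 0.793% of HIF-1β sites in wild-type cells of the knockout experiment, 14.3% at 16 h in the severity and duration experiment, 17.1% in RCC4 and 13.9% in HepG2. The part of GC content in the absence of EGLN1 site 1 was not tested.

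**Figure D5:**
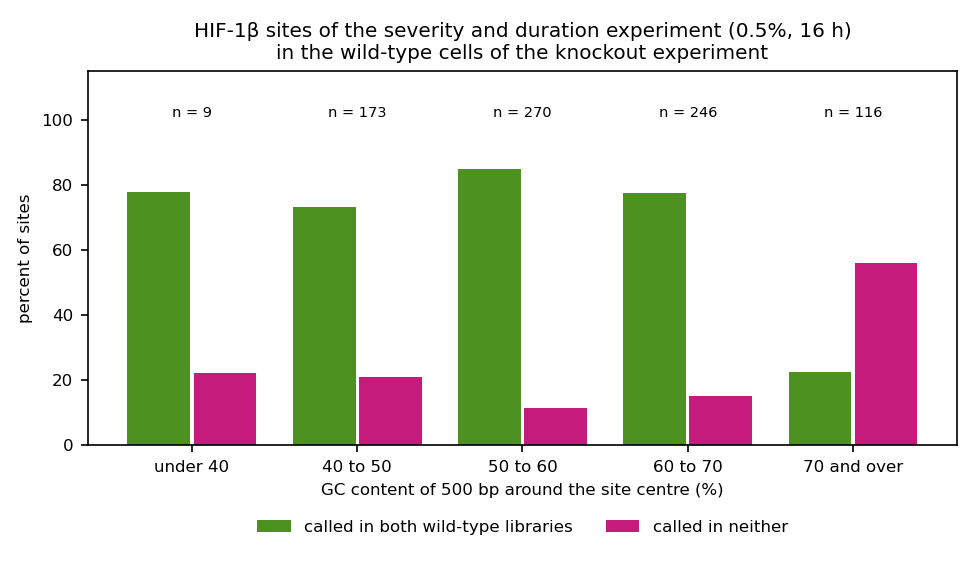
Percent (vertical axis) of sites with HIF-1β in both 16 h libraries of the severity and duration experiment that were called in both or in neither HIF-1β wild-type library of the knockout experiment, by GC content of 500 bp around the centre (horizontal axis, n per bin printed above). At 70% GC and over 56.0% were called in neither; EGLN1 site 1 (78.4%) and EGLN3 site 3 (75.0%) belong to that bin.

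A wider list of 20 genes around the pathway was described in the same way. A site called in both libraries of at least 1 group lay near 10 of the 20, where it did near 46.7% of all protein-coding genes. SNAPC1, which shares the 2 sites of HIF1A, had one in 21 of 25 groups, followed by SIAH2, a ubiquitin ligase for prolyl hydroxylases (9 groups), RACK1, which binds HIF-1α (7), and CUL2, the scaffold of the VHL ligase (6).

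The sites whose percentiles over the 50 libraries were most like those of the leading sites were found among 2652 sites called in at least 10 libraries, by Spearman's rho as a description. For EGLN3 site 1 they were nearest to MAF (rho 0.86), MYL4 (0.82) and SEC61G (0.82). For EGLN1 site 1 they were nearest to RASSF7 (0.91), PFKL (0.86) and BNIP3L (0.86), of which PFKL is a subunit of phosphofructokinase and BNIP3L a mitophagy receptor. For CITED2 site 1 they were nearest to FAM13A (0.89), CPOX (0.88) and PDE9A (0.88), and for HIF1A site 1 to PFKP (0.63), HDHD5 (0.62) and TRIO (0.61). The libraries share antibodies, cells and list lengths, so the values carry no p.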

How the data were processed

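Peak lists of 50 ChIP libraries were analysed. As stated by the study, the authors trimmed reads with Trim Galore 0.3.3, aligned them to GRCh37 (hg19) with BWA 0.7.5a-r405, removed reads with a mapping quality under 15 with SAMtools 0.1.19, marked duplicates for exclusion with Picard 1.106, excluded blacklisted regions with BEDTools 2.17.0, and called peaks with MACS against control libraries (version not given in the sources used here). The study also describes a second peak caller, T-PIC, and a filter on read count under the peak. Whether the deposited lists passed through either is not given in the sources used here. Each deposited list gives intervals and a MACS score (at least 50), read here as −10 times the log10 of the p-value. The lists hold no read depth, and the 16 input libraries were not used here.

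Peaks overlapping by at least 1 bp were merged. Genes came from GENCODE release 44 lifted to GRCh37, and nearest starts from its protein-coding transcripts. Calls were compared by exact two-sided permutation tests within strata (condition or antibody), for all sites called in at least 4 of 28 or 3 of 12 libraries, with Benjamini-Hochberg adjustment over all of them, after a test on simulated data. Replicates were independent ChIP experiments by the study's account, and p-values measure the spread between these libraries. Deviations of same-numbered libraries correlated over 0.1 in all pairs only for 16 h against 6 h (3 pairs, 0.14 to 0.19). The replicate block changed no call there, and no site passed with or without it. Correlations were over 0.1 in 2 of 3 pairs for 3% against 0.5% oxygen and in 1 of 3 for 48 h against 6 h. For the isoforms 2 of 7 pairs were over 0.1, in a range from -0.45 to 0.42. No 2 lists were identical. Python 3.11.15, numpy 2.4.6, pandas 2.3.3, scipy 1.17.1 and pysam 0.24.0 were used.

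All 10 genes are named. Sites called in both libraries of a group are described, and of these the 3 called in the most libraries of each locus in full. The genes, the wider list and the tests were chosen with earlier results of these data known. Alternatives were another measure (score percentile), a score of at least 100, the upper 50% of each list, other site definitions, windows of 10 and 100 kb, a filter of 2 of 28 libraries, leaving out HepG2 or a replicate, and a replicate block.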

Additional observations from a re-analysis of the deposited data

How the results depend on the processing

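Of 313 values under alternative settings, 289 kept their direction and their side of the threshold or stayed within 1.5 times. This count says little for the oxygen and duration contrasts and that of the 2 experiments, where no site passed. With a replicate left out or blocked, their smallest possible p is larger still. Without replicate 1, EGLN3 site 3 at 3% oxygen had the largest change possible and an exact permutation p of 0.25. For HIF-1α against HIF-2α, where no site passed by calls, 182 sites passed by score percentile, 2 with a score of at least 100, 12 in the upper 50% of each list, 3 when a peak's centre had to lie inside the site, 37 without HepG2, and 316 by percentile without HepG2 (added after the data had been seen). At HIF1A site 2 the adjusted p ranged from 0.0398 to 1 over the alternatives that kept calls as the measure. CITED2 site 1 reversed its small difference by percentile, to -1.83, and to -2.07 without HepG2, and EGLN1 site 1 at 16 h against 6 h went to 1 with a score of at least 100. The number of sites fell to 19 with a score of at least 100 and to 27 in the upper 50%. With 1 call in place of both, 41.2% of wild-type HIF-1β sites were kept in HIF-2αKO, 41.2% were shared with HepG2 and 23.5% with RCC4, and 87.5% of HIF-1α sites were shared with HepG2. With 1 replicate left out these HIF-1β shares ranged from 41.2% to 70%, 41.2% to 70% and 23.5% to 40%, and that of HIF-2α sites in RCC4 from 33.3% to 62.5%, the lower values each without replicate 1. The alternatives remove peaks, libraries or the demand for a second call, and causes beyond that were not tested. Deviations of same-numbered libraries correlated between -0.45 (HepG2) and 0.42 (RCC4) for the isoforms, so their numbers were not taken as a pairing, and permuting within the replicate block changed no call of 48 values, with 0 sites passing, as with crossed numbers in HepG2 and HKC-8 at 3% oxygen. Without depth, a missing call says only that no peak passed the threshold.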
